A study of Rattus norvegicus with 24 samples.

Results

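Adding a miR-455-3p mimic to a miR-222-3p mimic in doxorubicin-treated heart muscle cells was read by comparing all genes between the doxorubicin group that received both mimics and the doxorubicin group that received the miR-222-3p mimic alone. The comparison takes 6 of the 24 RNA-seq libraries of the series, 3 in each group, chosen by their labels only. All 24 libraries come from neonatal ventricular myocytes of Sprague-Dawley rats in primary culture, and the series addresses whether the 2 microRNAs together protect these cells from doxorubicin, an anthracycline cancer drug that damages the heart. Mimics, synthetic double-stranded RNAs that act as the mature microRNA, were transfected at 5 nM each the day after plating. Doxorubicin followed 48 h later and lasted 24 h, at a dose given as 4 uM in the sample protocol and as 4 mM in the series text. The combination therefore received 10 nM of mimic in total and the miR-222-3p group 5 nM, and whether single-mimic wells were topped up with control mimic is not stated in these sources. The identity of the added mimic and the larger amount of mimic cannot be told apart in this comparison. Of 3 further comparisons in which the miR-455-3p mimic was the difference, 1 added it to miR-222-3p in cells without doxorubicin, at the same doses. The other 2 set the miR-455-3p mimic against a negative control mimic, each at 5 nM, with and without doxorubicin. Those 4 comparisons share no library with each other, but 1 estimate of spread per gene over all 24 libraries served them all. The animals and culture days behind the replicates are not given, so each p-value reflects only how these samples spread, which may be technical.

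A mature microRNA is loaded into an Argonaute protein and pairs through its seed, the bases near its 5′ end, with matching sites that lie mostly in the 3′ untranslated regions of messenger RNAs. Paired messengers are translated less and degraded faster, so that a transfected mimic is known to lower many messengers by modest amounts, while other genes move as later consequences. miR-222 is encoded beside miR-221 and is known in heart muscle cells for its increase with exercise and for targets such as Cdkn1b, Hipk1 and Hmbox1. miR-455-3p is best known from cartilage, where it is linked to the histone deacetylase Hdac2.

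The mature rat sequences show how little the 2 mimics share in the part that selects targets. They were taken from RefSeq with assembly GRCr8 by matching the microRNA names (3 of 3 matched), and bases 2 to 8, the seed, are in capitals. The sequences of the purchased mimic products are not in the files used here.

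rno-miR-455-3p: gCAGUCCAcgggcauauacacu

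rno-miR-222-3p: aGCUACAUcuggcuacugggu

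rno-miR-221-3p: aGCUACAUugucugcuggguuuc

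rno-miR-455-3p has 22 bases and lies on the forward strand at chr5:81704881-81704902. No other name among 693 mature rat microRNAs in the table carried its seed. rno-miR-222-3p has 21 bases and lies on the forward strand at chrX:6022682-6022702. Its seed is the same as that of its neighbour rno-miR-221-3p, which is shown for that reason. A messenger site that pairs with the miR-455-3p seed reads UGGACUG, and a site for the miR-222-3p seed reads AUGUAGC. Target sites were not searched, since no messenger or 3′ untranslated sequence was used here.

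The 6 libraries held 19619549 to 25750309 counts each. Mitochondrially encoded transcripts took 8.61%, 12.7% and 10.5% of the counts in the miR-222 libraries (10.6% ± 2.04, SD, n = 3) and 13.1%, 21.3% and 20.2% in the libraries with both mimics (18.2% ± 4.46, SD, n = 3). These shares did not overlap, and an exact two-sided permutation test gave p = 0.1, the smallest value that 3 against 3 allows. Replicate 2 of both mimics stood apart from the other 2 of its group: its counts differed from theirs with a chi-square per degree of freedom of 374 and 166, against 132 between the other 2 and 54.4 to 95.9 between the miR-222 libraries. It also had the fewest genes with at least 10 counts, 12289, where the other 5 libraries had 12720 to 13322.

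**Figure D1:**
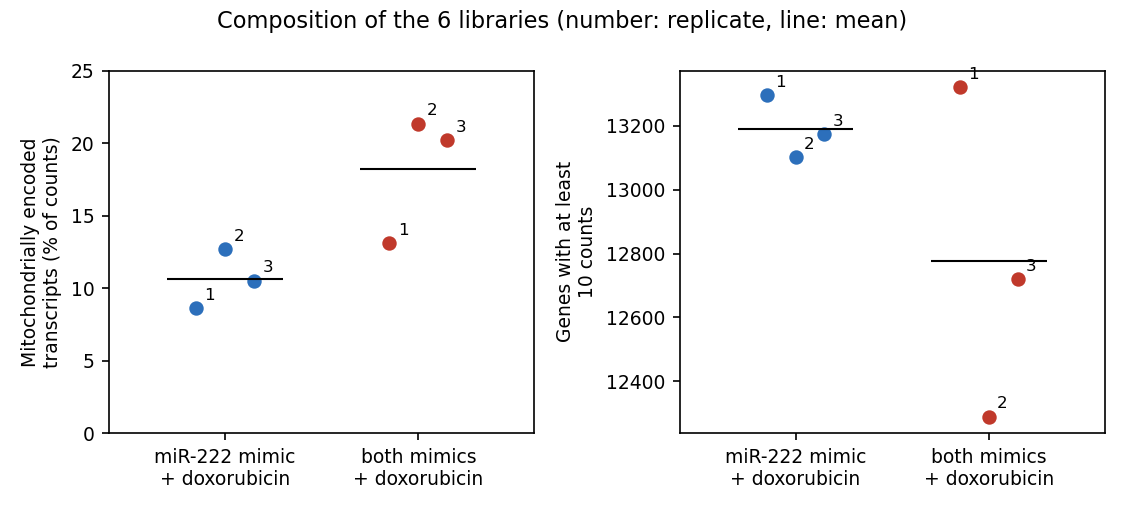
Composition of the 6 libraries: each point is a library, labelled with its replicate number, and the line is the group mean (n = 3), with doxorubicin in both groups. The mitochondrially encoded share ran from 8.61% to 12.7% with the miR-222 mimic and from 13.1% to 21.3% with both mimics.

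With both mimics, 23 of 14303 genes tested (0.161%) fell against miR-222 alone, and no gene passed the test in the higher direction (0%). The genes that fell code for proteins of the mitochondrion (Mpc2, Coq2, mrpl9, Bckdk), of the lysosome and of lipid or sugar handling (Glb1, Lamtor2, Slc49a4, Gltp, Lpcat3, Cmas), of the cell membrane, cytoskeleton and secreted fraction (Kcnh2, Arpc1a, Mtpn, Dkk3), and of signalling, protein turnover and RNA handling (Irak1, Spop, Ppm1g, Lhpp, Rtcb, Eif1ax). The remaining 3 were Tmem50b, Ptges3l and RGD1310352. This grouping was made after the genes were known and was not tested. Their levels with both mimics were 12.1% to 62.4% of those with miR-222 alone, and the median log2 fold change was -1.54, beside -0.05 over all genes tested. Calls are from edgeR's quasi-likelihood F test with a Benjamini-Hochberg adjusted p under 0.05. Below, levels are CPM, counts divided by the TMM-scaled library size and set to a common total, and a fold change is log2 of both mimics over miR-222 alone ± its standard error. Levels of different genes are not comparable with each other, since CPM carries no correction for length.

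Among the mitochondrial genes, Mpc2 had the largest fall of the 23. It codes for a subunit of the mitochondrial pyruvate carrier, which brings pyruvate into the matrix. In replicates 1, 2 and 3, Mpc2 had 47.4, 76.8 and 69.4 CPM with miR-222 and 11.97, 5.97 and 5.45 CPM with both mimics. The groups were far apart, and its log2 fold change was -3.04 ± 0.53 (adjusted p = 0.0209), a level 12.1% of that with miR-222 alone. Coq2, an enzyme of coenzyme Q synthesis, had 68.6, 50.1 and 58.4 CPM with miR-222 and 20.3, 9.52 and 15 CPM with both mimics. All 3 combination libraries were below every miR-222 library, with a log2 fold change of -1.98 ± 0.38 (adjusted p = 0.0331). The gene listed as mrpl9 codes for a protein of the mitochondrial ribosome. The 3 miR-222 libraries had 36.4, 74.8 and 58.97 CPM of mrpl9, and the 3 libraries with both mimics 13.6, 7.40 and 11.5 CPM. Replicate 1 of miR-222 was the lowest of its group, yet still above all 3 combination libraries, and the log2 fold change was -2.39 ± 0.48 (adjusted p = 0.0472). Bckdk, the kinase that inhibits breakdown of branched-chain amino acids, had the smallest fall of the 23 and the tightest replicates: it was at 221, 226 and 226 CPM with miR-222 and at 136, 143 and 141 CPM with both mimics. Its log2 fold change was -0.68 ± 0.13 (adjusted p = 0.0427).

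The lysosomal genes that fell were Glb1, Lamtor2 and Slc49a4. Glb1, the lysosomal beta-galactosidase, had 155, 146 and 141 CPM with miR-222 and 80.9, 50.4 and 75.7 CPM with both mimics, with the lowest level in replicate 2 of the combination. The difference was -1.09 ± 0.21 (adjusted p = 0.0331). Lamtor2 is a subunit of the Ragulator complex, which anchors the nutrient-sensing kinase mTORC1 at the lysosome. With miR-222 the level of Lamtor2 was 24.9, 49.9 and 33.05 CPM, and with both mimics it was 13.3, 8.83 and 9.96 CPM. Replicate 1 of miR-222 lay closest to the combination, and the log2 fold change was -1.75 ± 0.30 (adjusted p = 0.0209). Slc49a4, a transporter of the lysosomal membrane, ranged over 31.1 to 58.3 CPM with miR-222 and 13.01 to 19.5 CPM with both mimics (-1.44 ± 0.27, adjusted p = 0.0255). Cmas activates sialic acid for attachment to glycans and had the smallest adjusted p of all genes. Cmas was measured at 47.3, 69.3 and 55.4 CPM with miR-222 and at 17.4, 15.9 and 14.8 CPM with both mimics. The 3 combination libraries differed little from each other, and the log2 fold change was -1.84 ± 0.21 (adjusted p = 0.000561). Gltp, a glycolipid transfer protein, was at 25.2, 23.4 and 25.1 CPM with miR-222 and at 10.3, 3.36 and 5.74 CPM with both mimics (-1.92 ± 0.37, adjusted p = 0.0396). Lpcat3, which places polyunsaturated fatty acids into phospholipids, had 109, 131 and 133 CPM with miR-222 and 71.7, 47.3 and 66.2 CPM with both mimics (-1.01 ± 0.20, adjusted p = 0.0441). Neither gene overlapped between the groups.

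Kcnh2 codes for the hERG potassium channel, which carries repolarizing current in heart muscle and is a known site of drug-induced arrhythmia. In replicates 1, 2 and 3, Kcnh2 had 35.9, 64.8 and 31.1 CPM with miR-222 and 7.10, 12.01 and 2.93 CPM with both mimics. Its combination libraries spread widely but all lay below the miR-222 libraries, with a log2 fold change of -2.58 ± 0.45 (adjusted p = 0.0220). Arpc1a is a subunit of the Arp2/3 complex, which nucleates branched actin. The 3 miR-222 libraries had 165, 178 and 178 CPM of Arpc1a, and the 3 libraries with both mimics 55.2, 33.6 and 43.9 CPM. The miR-222 libraries were nearly equal, and the log2 fold change was -1.97 ± 0.25 (adjusted p = 0.000830). Dkk3, a secreted glycoprotein of the Dickkopf family, was at 126, 109 and 129 CPM with miR-222 and at 42.5, 24.9 and 39.95 CPM with both mimics. Replicate 2 of the combination was the lowest, and the log2 fold change was -1.76 ± 0.26 (adjusted p = 0.00659). Mtpn codes for myotrophin, an ankyrin-repeat protein described in heart hypertrophy. With miR-222 the level of Mtpn was 125, 91 and 85.6 CPM, and with both mimics it was 44.3, 24.4 and 35.03 CPM. The groups did not overlap, and the log2 fold change was -1.54 ± 0.30 (adjusted p = 0.0407).

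Irak1, the kinase that relays interleukin-1 and Toll-like receptor signals, had 204, 207 and 206 CPM with miR-222 and 107, 61.9 and 110.3 CPM with both mimics. Replicate 2 of the combination was the lowest, and the log2 fold change was -1.15 ± 0.21 (adjusted p = 0.0231). Spop, which brings substrates to a Cullin-3 ubiquitin ligase, was at 60.3, 73.8 and 72.4 CPM with miR-222 and at 30.6, 39.8 and 30.6 CPM with both mimics (-1.03 ± 0.18, adjusted p = 0.0228). In Spop and in Eif1ax replicate 2 was the highest of the combination libraries. Eif1ax, a factor in start codon selection, had 133, 152 and 156 CPM with miR-222 and 69.8, 92.2 and 64.97 CPM with both mimics (-0.96 ± 0.17, adjusted p = 0.0228). Rtcb, the ligase that joins tRNA exons and Xbp1 messenger, was at 45.3, 41.2 and 50.2 CPM with miR-222 and at 20, 15.9 and 24.02 CPM with both mimics (-1.19 ± 0.19, adjusted p = 0.0151). Both groups of Rtcb were tight relative to the gap between them. The phosphatases Ppm1g (-1.25 ± 0.20, adjusted p = 0.0151) and Lhpp (-1.55 ± 0.26, adjusted p = 0.0190) fell too. Ppm1g ranged over 75.9 to 78.4 CPM with miR-222 and 23.6 to 40.1 CPM with both mimics, and Lhpp over 21.8 to 25.8 and 6.22 to 10.4 CPM. Tmem50b (-1.62 ± 0.29), Ptges3l (-1.35 ± 0.26) and RGD1310352 (-0.78 ± 0.15), listed in RefSeq under the symbol C10h5orf15, complete the 23, with adjusted p-values of 0.0231, 0.0396 and 0.0320.

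**Figure D2:**
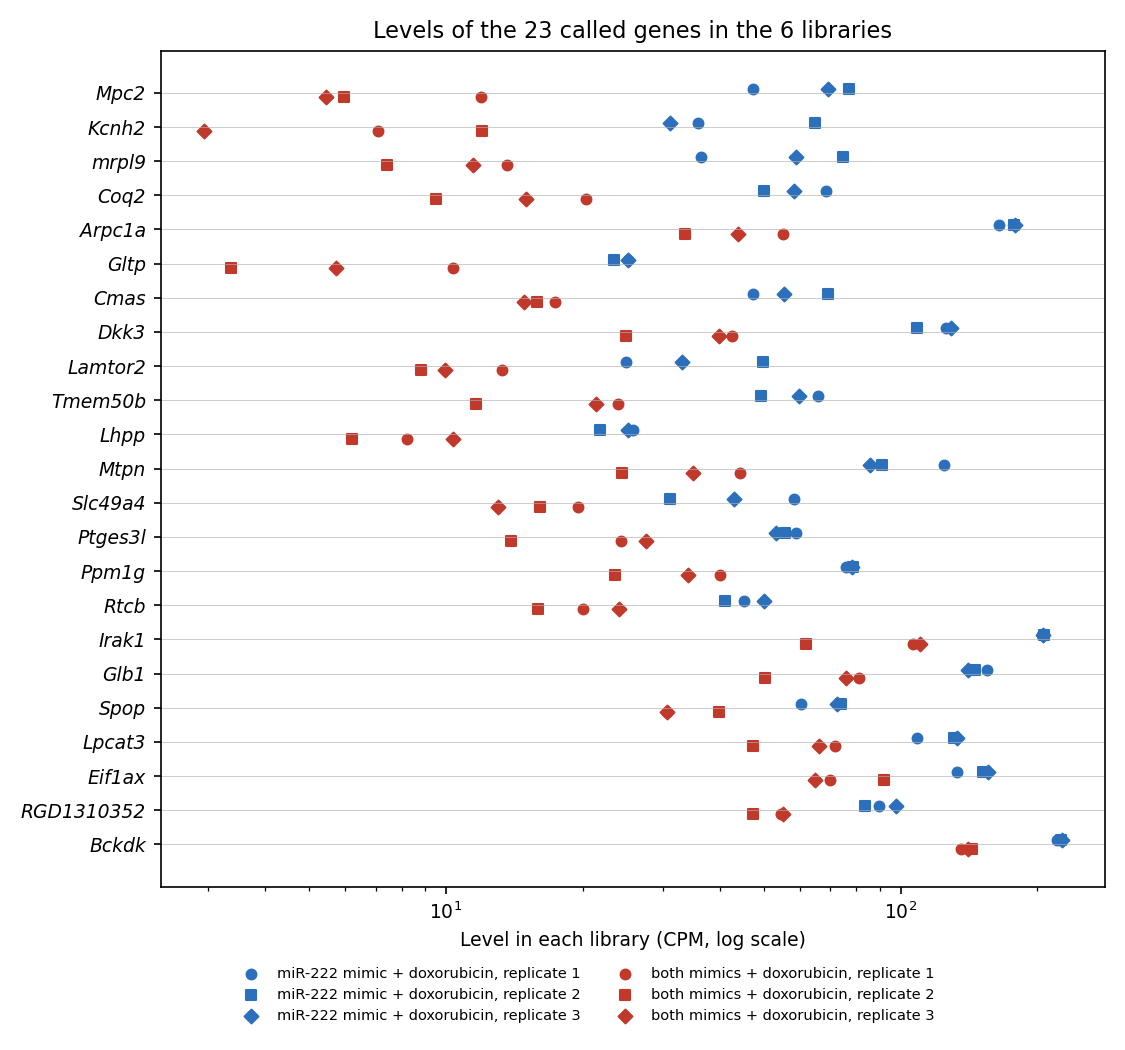
Level of each of the 23 genes in the 6 libraries, in CPM on a log axis, with colour for the group and marker shape for the replicate. In every gene the 3 libraries with both mimics lie to the left of the 3 with miR-222 alone, from Mpc2 at 12.1% of the miR-222 level to Bckdk at 62.4%.

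The next values describe the 23 genes in the libraries that chose them, so they give no support to the calls. The groups did not overlap in any of the 23, and over all genes tested 11.4% had every combination library below every miR-222 library. Over the 23 genes the median log2 ratio to the miR-222 mean was -1.20 in replicate 1, -1.87 in replicate 2 and -1.45 in replicate 3 of the combination. Replicate 2 had the lowest of the 3 levels in 16 genes.

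The number of calls changed when single libraries were left out, and with the libraries and the test used in the fit. Without replicate 1, 2 or 3 of miR-222 it was 11, 5 and 3, and without replicate 1, 2 or 3 of both mimics it was 38, 6 and 5. The 6 genes called without replicate 2 of both mimics were Cmas, Arpc1a, Dkk3, Kcnh2, Spop and Eif1ax. An edgeR fit of the 6 libraries alone called no gene, with 1378 genes at an unadjusted p under 0.05, all 23 genes among them, and adjusted p-values from 0.247 to 0.460 for the 23. DESeq2 called 148 genes on 24 libraries (59 higher, 89 lower) and 110 on the 6 libraries (41 higher, 69 lower), with all 23 among each. With the mitochondrial share of each library as a covariate edgeR called 37 genes, 21 of the 23 among them.

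In the higher direction edgeR called 0 genes, while 973 (6.8%) had an unadjusted p under 0.05, against 554 (3.87%) in the lower direction. The 6 with the smallest p are given as values only. Mrps10, a protein of the mitochondrial ribosome, had 2.83, 2.19 and 2.19 CPM with miR-222 and 5.47, 7.53 and 8.67 CPM with both mimics, which is a log2 difference of 1.58 ± 0.32 (adjusted p = 0.0510). Npc1, the lysosomal cholesterol transporter, was at 28.4, 23.2 and 30.6 CPM with miR-222 and at 44.7, 42.1 and 46.2 CPM with both mimics (0.69 ± 0.15, adjusted p = 0.0943). Wrb, listed in RefSeq as Get1, a receptor for tail-anchored proteins at the endoplasmic reticulum, had 11.3, 9.06 and 12.4 CPM with miR-222 and 19.1, 39.9 and 21.97 CPM with both mimics (1.30 ± 0.29, adjusted p = 0.0943). In each of these 3 genes the combination libraries were above every miR-222 library, as 9.4% of all genes tested were. Capn6 (1.79 ± 0.41, adjusted p = 0.127), Mrpl35, a mitochondrial ribosome gene (0.76 ± 0.18, adjusted p = 0.133), and AABR07057491.1 (1.47 ± 0.34, adjusted p = 0.127) completed the 6. By DESeq2 on 24 libraries all 6 had an adjusted p under 0.05, from 2.2e-05 for Npc1 to 0.00435 for Wrb. In the fit without replicate 2 of both mimics, the unadjusted p was under 0.05 for 282 higher genes (1.93%) and 320 lower ones (2.19%), so the excess on the higher side was not seen there.

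The same addition in cells without doxorubicin used 6 other libraries. Among these, replicate 3 of both mimics stood apart, with a mitochondrial share of 24.9% against 8.16% and 6.82% in replicates 1 and 2, and with a chi-square per degree of freedom of 531 and 601 against them, where those 2 had 8.05 between them. The miR-222 libraries had shares of 9.18%, 9.34% and 8.70%, and a chi-square per degree of freedom of 5.96 between replicates 1 and 2 and of 132 to 133 against replicate 3. In that comparison edgeR called 0 of 14303 genes (0%), with 564 (3.94%) reaching an unadjusted p under 0.05, while DESeq2 called 24. All 23 genes were below 0 (50.1% of all genes were), 14 of them with an unadjusted p under 0.05 (1.54% of all genes were lower at that p), and their median log2 fold change was -0.71, beside -0.00115 over all genes. Dkk3 had 75.1, 75.3 and 60.6 CPM with miR-222 and 28.8, 31.2 and 16.9 CPM with both mimics in the absence of the drug (-1.46 ± 0.26, adjusted p = 0.229). Arpc1a had 104, 103 and 84.2 and 51.9, 52.2 and 30.4 CPM (-1.12 ± 0.24, adjusted p = 0.518). In both genes the libraries with both mimics were below all 3 with miR-222, although neither passed the adjusted threshold, and replicate 3 of both mimics was the lowest library of each. Without that library all 23 genes were below 0 (50.3% of all genes were), 13 of them with an unadjusted p under 0.05 (1.78% of all genes were lower at that p), and the median was -0.57. EdgeR then called 0 genes, with 374 at an unadjusted p under 0.05, and the values were -1.23 ± 0.27 for Dkk3 and -0.91 ± 0.25 for Arpc1a.

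Whether doxorubicin altered the effect of the addition was tested directly as the difference between the 2 fold changes. No gene passed edgeR's test (0%), 136 (0.951%) reached an unadjusted p under 0.05, while DESeq2 called 3. Without replicate 1 of both mimics with doxorubicin edgeR called 1. For the 23 genes the difference was below 0 in 23, with a median of -0.77, and 16 reached an unadjusted p under 0.05 (0.587% of all genes did in that direction), but the genes were chosen with the doxorubicin fold change that enters the difference, so this carries no support. For Mpc2 the log2 fold changes were -3.04 ± 0.53 with and -0.95 ± 0.49 without doxorubicin, a difference of -2.10 ± 0.70 (adjusted p = 1). For Dkk3 they were -1.76 ± 0.26 and -1.46 ± 0.26, a difference of -0.31 ± 0.36 (adjusted p = 1).

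Against the negative control mimic, the miR-455 mimic also lowered most of the 23. With doxorubicin, where edgeR called 264 genes lower (1.85%), 22 of the 23 were below 0 (48.3% of all genes), 19 fell by the adjusted test, and the median was -1.67 (0.02 over all genes). Without doxorubicin, where 322 genes were called lower (2.25%), 19 of the 23 were below 0 (46.5% of all genes), 7 fell, and the median was -0.56 (0.06 over all genes). The 7 were Ppm1g, Rtcb, Irak1, Glb1, Eif1ax, RGD1310352 and Bckdk. In the comparison with doxorubicin the mitochondrial share was 38.2%, 8.83% and 16.01% with the control mimic and 14.8%, 15.4% and 13.7% with miR-455. There, unlike between the groups with miR-222, the shares overlapped. Replicate 1 of the control mimic stood apart, with a chi-square per degree of freedom of 599 and 344 against replicates 2 and 3. Those 2 had 133 between them, and the miR-455 libraries 8.11 to 10.2. Control replicate 1 had 11469 genes with at least 10 counts, and replicates 2 and 3 had 13524 and 13051. All calls with doxorubicin numbered 358 with every library (2.5%) and 152, 146 and 145 without replicates 1, 2 and 3 of miR-455. Without those of the control mimic they numbered 246, 283 and 320. Without doxorubicin they numbered 675 (4.72%), but 16, 1987 and 41 without replicates 1, 2 and 3 of miR-455 and 108, 201 and 1163 without those of the control mimic. Counting the 3 comparisons outside the one that chose the genes, 18 of the 23 were below 0 in all 3, as were 10.9% of all genes tested.

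**Figure D3:**
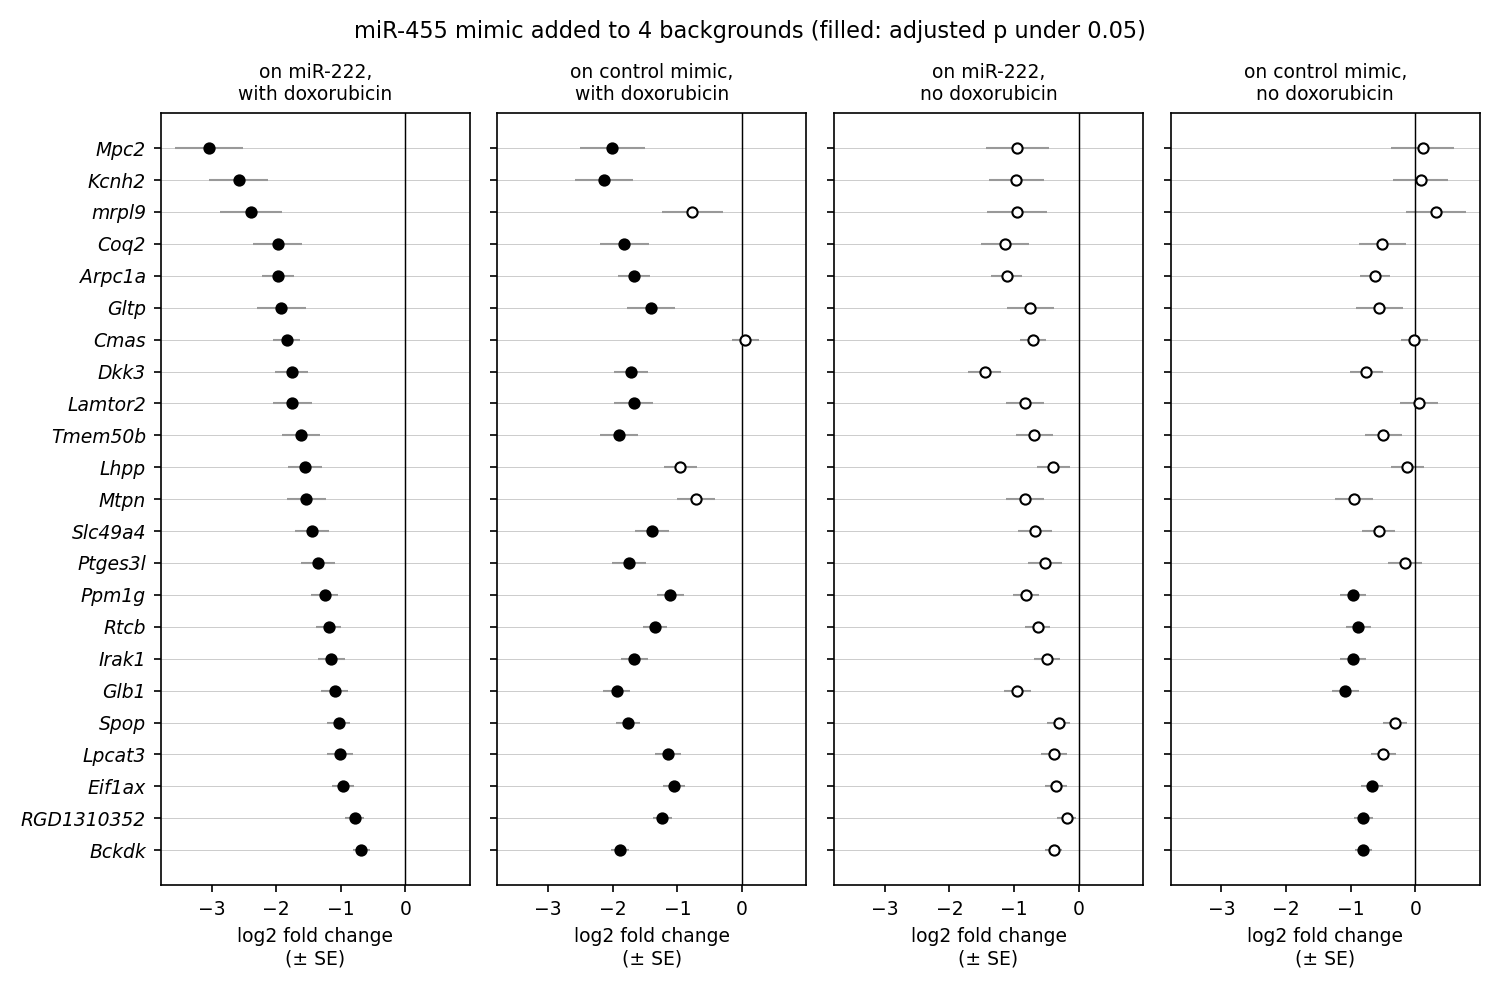
Log2 fold change ± SE of the 23 genes when the miR-455 mimic was added to miR-222 with and without doxorubicin, and when it was set against the control mimic with and without doxorubicin (3 libraries against 3 in each panel); filled points have an adjusted p under 0.05. Without doxorubicin no point is filled for the addition to miR-222, and against the control mimic with doxorubicin 19 are.

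The levels in the control groups placed the falls on different baselines. Dkk3 stood at 556, 676 and 697 CPM with the control mimic and doxorubicin, at 186, 196 and 205 CPM with miR-455, at 126, 109 and 129 CPM with miR-222 and at 42.5, 24.9 and 39.95 CPM with both. The order was the same in every library: control highest, then miR-455, then miR-222, and the combination lowest. Arpc1a had 163, 183 and 208 CPM with the control mimic, which overlapped the miR-222 libraries, and 53.1, 61.1 and 59.9 CPM with miR-455, which overlapped the combination. The gene mrpl9 had 16.4, 5.36 and 14.6 CPM with the control mimic and 7.34, 8.18 and 5.71 CPM with miR-455, far below the miR-222 libraries, and its log2 fold change against control was -0.77 ± 0.47 (adjusted p = 0.606). Mpc2 had 43.4, 45.2 and 77.3 CPM with the control mimic and 12.9, 16.01 and 12.4 CPM with miR-455 (-2.01 ± 0.50, adjusted p = 0.0348).

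Read from the other side, genes that miR-455 lowered with doxorubicin against the control mimic lay below 0 in the combination more often than all genes did, a difference that was not tested. Of the 264 genes lowered with doxorubicin, 190 (72.0%) were below 0 when miR-455 was added to miR-222, against 52.9% of all genes tested. Of the 264, 19 fell (0.161% of all genes tested did). At an unadjusted p under 0.05 there were 83 lower and 2 higher, beside 3.87% lower and 6.8% higher over all genes tested. Their median log2 fold change was -0.30, and without replicate 2 of both mimics 218 (82.6%) were below 0 with a median of -0.43. Of the 94 genes that miR-455 raised with doxorubicin (0.657%), 69 were above 0 here (47.1% of all genes were), and none passed the adjusted test. The unadjusted p was under 0.05 for 23 higher genes (6.8% of all genes) and 1 lower gene (3.87%), and the median was 0.27. The 322 genes lowered by miR-455 without doxorubicin lay on either side of 0 here: 160 (49.7%) were below 0, and their median was 0.02. Of the 322, 7 fell, and the unadjusted p was under 0.05 for 43 lower genes and 15 higher ones, beside 3.87% lower and 6.8% higher over all genes tested. Of the 68 genes lowered against the control mimic both with and without doxorubicin, 55 (80.9%) were below 0, and the median was -0.38. Of the 68, 7 fell (0.161% of all genes did). The unadjusted p was under 0.05 for 26 lower genes (3.87% of all genes) and 0 higher ones (6.8%). For the 42 genes raised in both, 30 were above 0 (47.1% of all genes were), and none passed the adjusted test by edgeR. Of the 42, 11 were higher at an unadjusted p under 0.05 (6.8% of all genes were), and the median was 0.25. These counts are descriptions of lists chosen in libraries that the combination comparison does not use.

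All 12 genes named by the rule as lowered most by miR-455 in the other comparisons were below 0 here (52.9% of all genes were). None of the 12 passed edgeR's test. Nt5e, the ectoenzyme that makes adenosine from AMP, was at 103, 172 and 137 CPM with miR-222 and at 71.3, 43.5 and 74.5 CPM with both mimics (-1.12 ± 0.23, adjusted p = 0.0567), and its groups did not overlap. DESeq2 called 3 of the 12, beside 148 of all 14303 genes tested. They were Nt5e (adjusted p = 0.000542), Anapc15 (0.0284) and Rmnd5a (0.0414). Anapc15, a subunit of the anaphase-promoting complex, had a log2 fold change of -1.04 ± 0.31, Cnot6, a deadenylase of the CCR4-NOT complex, -1.02 ± 0.43, Scoc -1.01 ± 0.36, and Rmnd5a, a ubiquitin ligase subunit, -0.91 ± 0.26. Their adjusted p-values by edgeR were 0.324, 0.429, 0.386 and 0.261. Values nearer 0 were found for Gucy1b1, the beta subunit of soluble guanylate cyclase (-0.69 ± 0.43), the beta 1 integrin Itgb1 (-0.55 ± 0.37), Cpne3 (-0.55 ± 0.28), pleiotrophin Ptn (-0.30 ± 0.61), Hsbp1 (-0.27 ± 0.40), the sodium channel Scn1a (-0.23 ± 0.58) and Sqor (-0.22 ± 0.28). The 6 genes raised in the other comparisons were Dnph1 (1.10 ± 0.36), Med30 (0.79 ± 0.39), Pycr1 (0.40 ± 0.40), Rab3b (0.27 ± 0.45), Galc (0.25 ± 0.38) and Ddt (-0.34 ± 0.40), and none passed the test by edgeR in either direction.

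Whether miR-455 acted otherwise on top of miR-222 than in place of the control mimic was tested with doxorubicin. The test took the difference between the 2 fold changes, which share no library. By the stated doses, the first compares 10 nM of mimic in total with 5 nM, and the second 5 nM with 5 nM. The presence of miR-222 and the change in total mimic cannot be told apart in this test. The difference passed edgeR's test in 6 genes (0.0419%), 5 with a higher value on top of miR-222 (0.035%) and 1, Cmas, with a lower one (0.00699%), and 1644 (11.5%) had an unadjusted p under 0.05. This count was 0 without replicate 2 or 3 of both mimics, without replicate 2 or 3 of miR-222, and without any 1 of the 3 miR-455 libraries. It was 2 without replicate 1 of miR-222 and 24 without replicate 1 of both mimics. Leaving out replicate 1, 2 or 3 of the control mimic gave 4, 10 and 14.

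Cmas had 15.8, 19.1 and 13.5 CPM with the control mimic, 15.7, 18.4 and 16.1 CPM with miR-455, 47.3, 69.3 and 55.4 CPM with miR-222 and 17.4, 15.9 and 14.8 CPM with both. The miR-222 libraries stood apart from those of the other 3 groups, and the difference between the effects was -1.89 ± 0.30 (adjusted p = 0.0173). Bckdk had 237, 238 and 241 CPM with the control mimic and 66.8, 64.8 and 62.3 CPM with miR-455, a larger fall than from miR-222 to both (-1.88 ± 0.14 against -0.68 ± 0.13). The difference was 1.20 ± 0.19 (adjusted p = 0.0173). Vnn1, a pantetheinase that yields cysteamine, went from 232, 259 and 195 CPM with the control mimic to 60.6, 63.6 and 57.3 CPM with miR-455, and had 82.97, 59.5 and 70.2 CPM with miR-222 and 73.5, 90.6 and 85.6 CPM with both. Its groups with miR-222, with and without miR-455, overlapped, and the difference was 2.15 ± 0.33 (adjusted p = 0.0173).

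Sqor, the mitochondrial enzyme that oxidizes sulfide, had 34.02, 41.96 and 26.2 CPM with the control mimic, 6.31, 7.38 and 4.30 CPM with miR-455, 46.3, 36.1 and 34.9 CPM with miR-222 and 22.4, 47.9 and 30.5 CPM with both. The fall seen with miR-455 alone was not detected on top of miR-222 (-2.50 ± 0.30 and -0.22 ± 0.28). There, replicates 1 and 3 of both mimics lay below every miR-222 library, and replicate 2 lay above every one. The difference between the effects was 2.29 ± 0.41 (adjusted p = 0.0414). Tmem183a had 109.8, 95.8 and 82.5 CPM with the control mimic and 35.3, 35.2 and 35.3 CPM with miR-455. On top of miR-222 its groups overlapped, with 66.95, 76.96 and 63.3 CPM with miR-222 and 55.7, 90.8 and 66.4 CPM with both, and the difference was 1.48 ± 0.25 (adjusted p = 0.0288). Gca, the calcium-binding protein grancalcin, was at 60.2, 22.01 and 27.2 CPM with the control mimic and between 3.12 and 5.92 CPM in all 9 other libraries with doxorubicin. Its difference was 3.27 ± 0.56 (adjusted p = 0.0288), with a level that was already low with miR-222 alone.

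**Figure D4:**
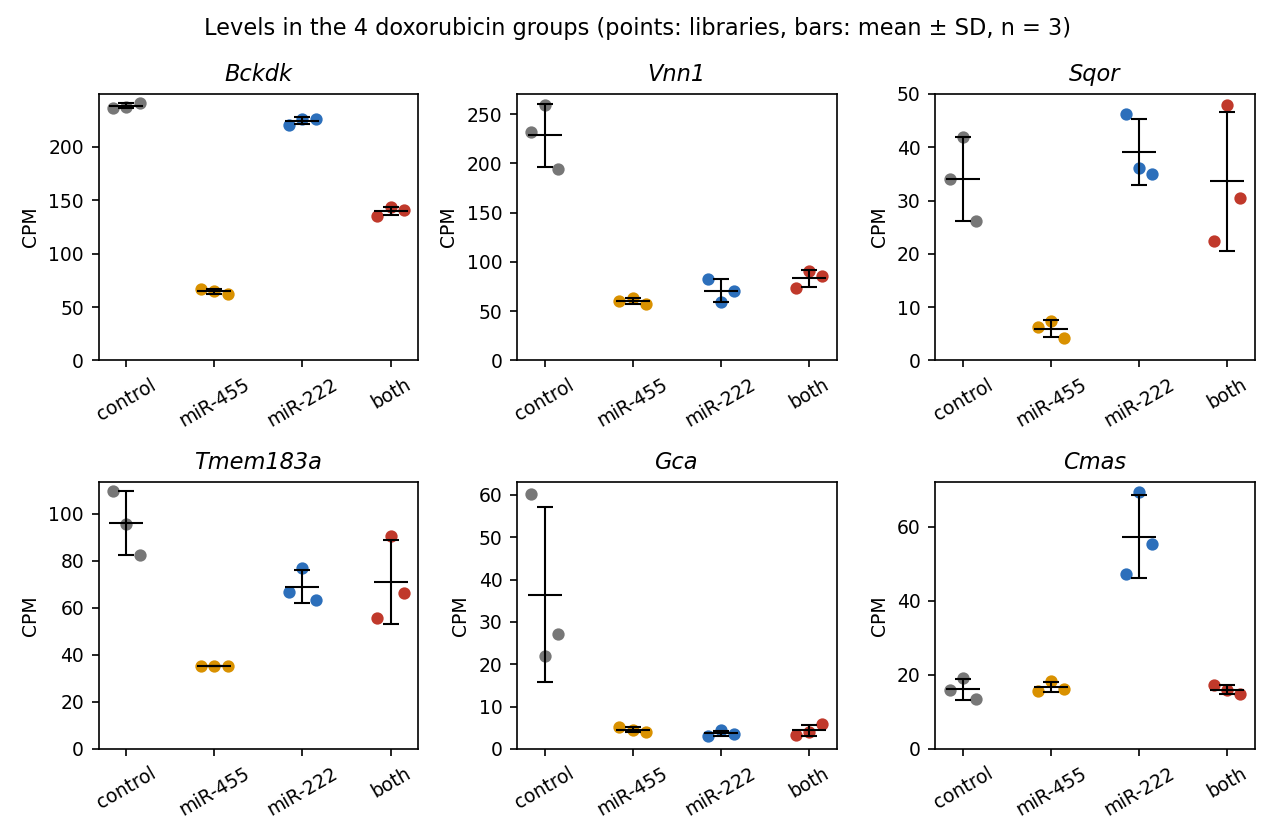
Levels (CPM) of the 6 genes in the 4 doxorubicin groups: points are libraries and bars the mean ± SD (n = 3), with axes that start at 0. Among these groups Cmas is high with miR-222 alone, and Bckdk, Sqor and Tmem183a are lowest with miR-455 alone.

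Gene lists for the heart, for doxorubicin injury and for the 2 microRNAs held 569 tested genes in 32 lists. Of these genes, 2 passed edgeR's test, where 0.161% of all genes tested did. They were Kcnh2 among 22 calcium and ion channel genes and Lpcat3 among 16 iron and ferroptosis genes. By DESeq2 8 of the 569 had an adjusted p under 0.05, beside 148 of all 14303 genes tested. In the lower direction these were Kcnh2, Lpcat3, Hk1 (0.0127), Akr1a1 (0.0207) and Acsl1 (0.0481), and in the higher Ncoa4 (0.0178), Pfkp (0.0249) and Pln (0.0270). All other list values that follow are from genes that did not pass edgeR's test, and p-values beside them are edgeR's. Of 15 targets of miR-455 named in other systems, 8 were below 0 (52.9% of all genes were) and the median was -0.03. Ei24, an apoptosis-linked protein of the endoplasmic reticulum, had 113, 111 and 104 CPM with miR-222 and 80.1, 126 and 93.03 CPM with both mimics (-0.14 ± 0.17, adjusted p = 0.723), and its groups overlapped. Against the control mimic with doxorubicin Ei24 fell by 0.89 on the log2 scale (adjusted p = 0.00464). Hdac2 had 0.53 ± 0.44 here, the heat shock regulator Hsf1 -0.90 ± 0.28 and Runx1t1 0.96 ± 0.39. Of 20 targets of miR-222 named in other systems, 10 were below 0, with a median of -0.02. In both of the groups compared the miR-222 mimic was present, and its targets Cdkn1b (0.36 ± 0.33), Hipk1 (0.22 ± 0.15) and Hmbox1 (-0.25 ± 0.46) had differences near their standard errors. The 15 genes of the small RNA machinery had a median of 0.05, with Ago2, which binds microRNAs, at 0.59 ± 0.31 and Tnrc6c, its silencing partner, at -0.52 ± 0.24.

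Genes of the doxorubicin response had values on either side of 0. The 30 tested p53 targets had a median of 0.03, with 14 below 0. Bax, which opens the outer mitochondrial membrane in apoptosis, was at 102, 80.9 and 100.4 CPM with miR-222 and at 58.7, 17.7 and 35.1 CPM with both mimics (-1.35 ± 0.41, adjusted p = 0.332). Cdkn1a, the cell cycle inhibitor p21, had 745, 493 and 734 CPM with miR-222 and 619.8, 155 and 332 CPM with both mimics (-0.83 ± 0.58), and Mdm2, the ligase that degrades p53, was at 197, 187 and 178 CPM with miR-222 and at 190.3, 564 and 304 CPM with both mimics (0.91 ± 0.44). The groups overlapped in Cdkn1a and Mdm2, and replicate 2 of both mimics held the lowest value of Bax and Cdkn1a and the highest of Mdm2. Of 24 mitosis genes, 20 were above 0 (47.1% of all genes were) with a median of 0.60, and 10 were higher at an unadjusted p under 0.05 (6.8% of all genes were). The kinesin Kif11 (1.58 ± 0.51), the spindle factor Tpx2 (1.24 ± 0.39) and Cenpf (1.32 ± 0.45) had the smallest p among them. Without replicate 2 of both mimics the median was 0.18, so the size of the difference depended on that library. In that fit 9 of the 24 were below 0 (52.4% of all genes were). None of the 24 had an unadjusted p under 0.05, where 1.93% of all genes were higher at that p. In cells without doxorubicin the same list had a median of 0.66.

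The 13 mitochondrially encoded transcripts were all above 0 (47.1% of all genes were), with a median of 0.73. Only 1 was higher at an unadjusted p under 0.05 (6.8% of all genes were). Without replicate 2 of both mimics their median was 0.71 and 1 of the 13 was below 0 (52.4% of all genes were). None of the 13 had an unadjusted p under 0.05 in that fit. Among 33 tested nuclear genes of the respiratory chain the median was 0.02. By the unadjusted p 4 genes were higher and none lower (6.8% and 3.87% of all genes), among them cytochrome c, Cycs (1.78 ± 0.62), and Uqcrc2 (0.58 ± 0.21). Only 1 of the 33 was higher at that p without replicate 2 of both mimics, where 1.93% of all genes were. The 23 glycolysis genes had a median of -0.25, with the hexokinase Hk1 at -0.81 ± 0.21 (adjusted p = 0.184), the phosphofructokinase Pfkp at 1.03 ± 0.26 (adjusted p = 0.189) and the lactate transporter Slc16a1 at -0.84 ± 0.25. Acsl1, which activates long-chain fatty acids and was the lowest of 26 fatty acid oxidation genes, had 65.4, 252 and 262 CPM with miR-222 and 50.3, 24.5 and 46.3 CPM with both mimics (-2.26 ± 0.69, adjusted p = 0.341). Its groups did not overlap, but replicate 1 of miR-222 lay near the combination. The 20 genes of endoplasmic reticulum stress and ATF4 had a median of -0.02, with 11 below 0 (52.9% of all genes were). By the unadjusted p 5 of the 20 were higher (6.8% of all genes) and none lower (3.87%). The chaperones Dnajb9 (1.37 ± 0.39) and Hspa5 (1.09 ± 0.36) had the smallest p. Without replicate 2 of both mimics 1 of the 20 was higher at an unadjusted p under 0.05, where 1.93% of all genes were.

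The contractile and stress genes of heart muscle did not pass the test. Myh6 and Myh7, the alpha and beta myosin heavy chains, had 0.55 ± 0.36 and 0.28 ± 0.51, and the natriuretic peptides Nppa and Nppb -0.32 ± 0.47 and 0.73 ± 0.37. Ankyrin repeat domain 1, Ankrd1, was at 299, 241 and 74.4 CPM with miR-222 and at 88.4, 3171 and 107 CPM with both mimics, and its value of 2.46 ± 1.20 rested on replicate 2, since the other 2 lay within the range of the miR-222 libraries. Phospholamban, Pln, which restrains the calcium pump of the sarcoplasmic reticulum, had 24.05, 72.9 and 25.05 CPM with miR-222 and 55.2, 454.6 and 56.4 CPM with both mimics, and there too replicate 2 was far above the rest (2.21 ± 0.64, adjusted p = 0.277). The 21 sarcomere genes had a median of 0.22, and -0.23 without that library, and the 12 cardiac stress genes 0.13 and -0.41, so the direction of both lists turned with it. The 14 cardiac transcription factors tested had a median of -0.35 and the 22 immediate early genes -0.41. Of those 22, 18 were below 0 (52.9% of all genes were) and 1 had an unadjusted p under 0.05. The 28 interferon-stimulated genes had a median of -0.05, with none at an unadjusted p under 0.05, and the 18 tested NF-kB targets and chemokines -0.25.

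**Figure D5:**
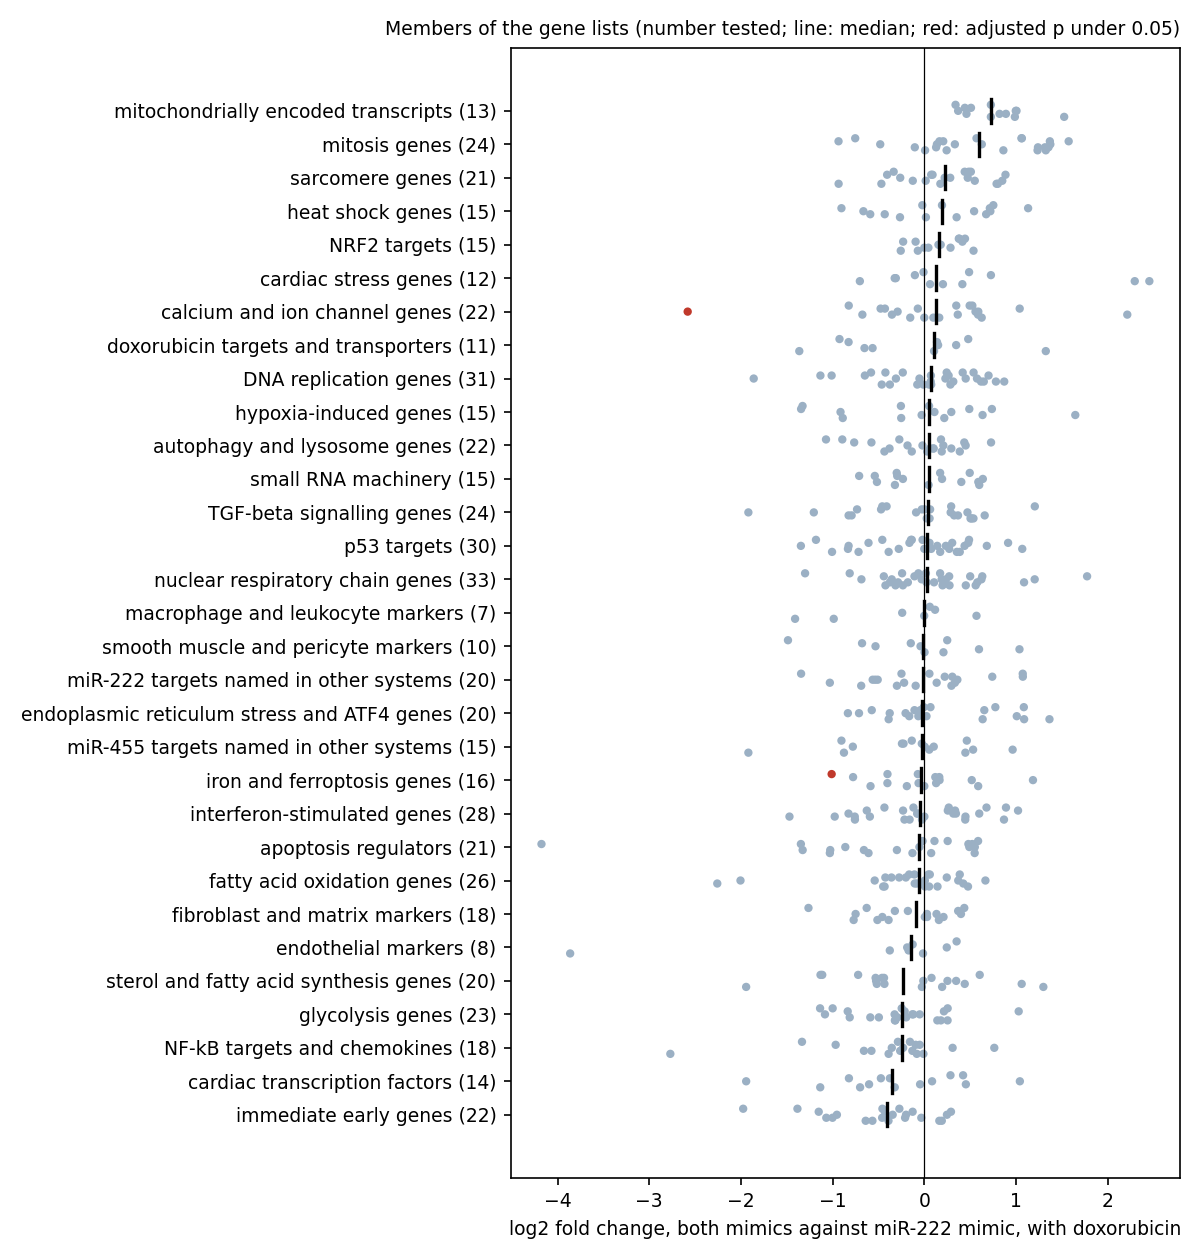
Log2 fold change of the tested members of the 32 gene lists, both mimics against miR-222 alone with doxorubicin. The erythroid markers, with 1 tested gene, are not drawn. Each point is a gene, the line is the list's median, and red marks an adjusted p under 0.05. The 2 red points are Kcnh2 and Lpcat3, and the mitochondrially encoded and mitosis lists have the highest medians, 0.73 and 0.60.

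Markers of cardiomyocytes and of other cell types of the heart were measured in all 6 libraries. The 8 cardiomyocyte markers summed to 29654 to 44747 CPM with miR-222 and 30570 to 69041 CPM with both mimics. Of 8 fibroblast markers, 7 are in the table, and they summed to 24884 to 27645 CPM and 16110 to 26869 CPM in the same order. Most of the fibroblast sum came from the collagens Col1a1 and Col3a1, while Tcf21 had 0.809 to 25.4 CPM and Thy1 2.58 to 12.9 CPM over the 6 libraries. The 6 smooth muscle and pericyte markers summed to 1217 to 2763 CPM and 1555 to 4441 CPM, and 5 of 6 endothelial markers to 38.7 to 56.9 CPM and 39.1 to 48.2 CPM. The 6 macrophage markers reached 3.00 CPM at most, with Adgre1 at 0 in all 6 libraries, and 3 of 4 red cell markers 0.769 CPM, with Hbb at 0. No tested marker passed the test, and the ranges of each type overlapped between the groups. None of the red cell markers was expressed enough to be tested, and 4 of 6 macrophage and 5 of 6 smooth muscle and pericyte markers were. In these bulk libraries fewer cells of a type and less RNA per cell cannot be told apart.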

How the data were processed

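PolyA RNA was sequenced in 24 libraries, 8 groups of 3, grouped by their labels. The authors deposited a table of expected counts for 21767 gene symbols. The submitters' processing notes name Salmon, DESeq2 and the build Rnor_6.0, without versions. Of the values, 7.35% were not whole and were rounded. Library totals ran from 17311949 to 25750309 counts.

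In R 4.3.3, edgeR 4.0.16 (filterByExpr, 14303 genes kept, TMM, quasi-likelihood F test, 1 model of the 8 groups over 24 libraries) tested each comparison, with Benjamini-Hochberg adjustment over all genes and a threshold of 0.05. The standard error is the log2 fold change divided by the square root of F. Shares of counts were compared by exact permutation. Scripts were tested on simulated data.

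The comparison, the gene lists and the rules were chosen with earlier results of these data known. The naming rule took, per direction, the 12 called genes with the largest fold change at 5 CPM or more whose groups did not overlap, adding genes of smallest p up to 6 where fewer than 6 qualified. It added up to 3 members per list with the smallest p, up to 12 genes called lower and 6 called higher in at least 2 of the other 3 miR-455 comparisons, up to 4 genes per direction with the largest difference between effects, and always Cdkn1b, Hipk1, Hmbox1, Ei24, Hdac2, Cdkn1a, Mdm2, Nppa, Nppb, Myh6 and Myh7. The 11 called genes beyond the first 12, from Slc49a4 to Bckdk by fold change, were named after their values were seen. A list member that the rule takes is not reported here.

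Alternatives were DESeq2 1.42.0 size factors and test, no filter, 1 CPM in 3 libraries, a replicate block, the groups compared alone, no mitochondrially encoded transcripts, leaving out the 4 libraries with the fewest genes, and leaving out each library. A fit without replicates 2 and 3 of both mimics, DESeq2 on 6 libraries and the mitochondrial share as a covariate were chosen after seeing the data, as were reading the gene lists without replicate 2 of both mimics and reading the 23 genes without replicate 3 of both mimics in cells without doxorubicin.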

Additional observations from a re-analysis of the deposited data

Results flagged for a closer look

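With doxorubicin, the effect of the miR-455 mimic on top of miR-222 differed from its effect in place of the control mimic in 6 genes. This was a direct test of the difference between both log2 fold changes at an adjusted p under 0.05 (edgeR). The difference was -1.89 for Cmas. It was 1.20 for Bckdk and 2.15 for Vnn1. For Sqor it was 2.29, for Tmem183a 1.48 and for Gca 3.27. None of the 6 passed in the fit without replicate 2 of both mimics.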

How the results depend on the processing

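The 23 calls for adding miR-455 to miR-222 with doxorubicin became 148 with the DESeq2 test, 15 with no filter, 0 with only the groups compared, and 91 when the 4 libraries that detected the fewest genes were left out. With the alternatives chosen after seeing the data they became 0 without replicates 2 and 3 of both mimics, 110 with DESeq2 on the groups compared and 37 with the mitochondrial share as a covariate. Calls of the same addition without doxorubicin (0) became 24 with DESeq2 and 3 without the 4 libraries. Calls for miR-455 against the control mimic with doxorubicin (358) became 654 with DESeq2, 144 with only the groups compared and 727 without the 4 libraries. Without doxorubicin (675) they became 1918, 2 and 1994 in the same order. The dependence on the drug (0) gave 3 calls with DESeq2. The dependence on miR-222 (6) gave 189 with DESeq2, 0 with no filter, 13 with at least 1 CPM in 3 libraries, 0 with only the groups compared, 13 without mitochondrially encoded transcripts, 35 without the 4 libraries and 29 with the mitochondrial covariate. With the replicate number as a block the addition with doxorubicin had 8 calls, all among the 23, miR-455 without doxorubicin 377, and the dependence on miR-222 1. Same-numbered libraries of both groups had correlations of 0.03, 0.17 and 0.18 in their deviations from the group means, and not every library correlated best with its own number, so the numbers were not shown to pair the samples. Leaving out 1 library at a time gave 3 to 38 calls for the addition with doxorubicin, 0 to 1 for the dependence on the drug, 0 to 24 for the dependence on miR-222, 145 to 320 for miR-455 with doxorubicin and 16 to 1987 without. Over the named genes, no fold change reversed among the called ones, 167 values lost and 38 gained a call, and 2313 kept their side of the threshold. The cause of these changes was not tested, except that fits of fewer libraries have fewer degrees of freedom by construction.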
